A study of Mus musculus with 2 samples.

Results

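The regions described here are 1322 distal 1 kb bins of the mouse genome (mm10) whose chromatin accessibility was at least 2.5 times lower in the astrocyte nuclei of a stroke library than in those of a sham library. They are called lost bins below, as a name for that ratio. They were chosen by the values themselves: a bin had to lie on an autosome, over 5 kb from the transcription start site (TSS) of any protein-coding transcript, hold 20 or more fragments from astrocyte nuclei of both libraries together, and have a sham over stroke ratio of CPM (fragments per 1000000 fragments of the nuclei counted) of at least 2.5 after 1 fragment was added to each count. Of 2462755 autosomal bins, 2186848 were distal and 33508 held enough fragments, so that the 1322 lost bins are 3.95% of the distal bins tested. The same rule in the other direction gave 3128 gained bins, 9.34% of those tested.

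The study profiled open chromatin in single nuclei from wild-type C57BL/6J males, young adults, at 48 h. The stroke mice had the middle cerebral artery blocked by a filament for 1 h and then reperfused, and the sham mice had surgery without sustained occlusion. Each condition is 1 library made from 4 pooled, flash-frozen brains: whole sham brains, and only the ipsilateral hemisphere of stroke brains, both without olfactory bulbs and cerebellum. Surgery, hemisphere and library therefore cannot be told apart, and no test between the conditions was possible. Intervals below are 95% exact intervals that cover counting error only.

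Accessible chromatin far from promoters includes enhancers, where transcription factors bind and displace nucleosomes, and which enhancers are open differs strongly between cell types. In astrocytes such elements carry sites for nuclear factor I (NFI), SOX and LHX proteins. In neurons many carry E-boxes, read by basic helix-loop-helix factors such as NEUROD, or the separate sites of MEF2 proteins. After injury astrocytes become reactive, and sites of the AP-1 factors, dimers of FOS and JUN proteins, commonly open. The transposase Tn5 cuts open DNA, so the number of fragments in a bin measures how open it is in the nuclei counted.

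Nuclei were gated as astrocytes where fragments over 7 marker genes (Aqp4, Slc1a2, Slc1a3, Gja1, Gjb6, Sox9 and Acsbg1) exceeded the number expected from depth by at least 3 Poisson standard units. The gate held 357 of 5948 sham nuclei (6.0%, 5.41 to 6.64) and 410 of 4379 stroke nuclei (9.36%, 8.52 to 10.3), with 4579637 and 4781010 fragments. A list of 14 other astrocyte genes, not used for the gate, gave 1097 CPM in gated sham nuclei and 1224 in gated stroke nuclei, against 475 and 465 outside the gate. Markers of other cells were not at 0 inside the gate. The 8 glutamatergic neuron markers gave 425 CPM (406 to 444) in gated sham nuclei and 308 (292 to 324) in gated stroke nuclei, and outside the gate 586 and 520. The 8 GABAergic markers gave 213 and 182 inside the gate and 276 and 292 outside. The 10 microglia and macrophage markers gave 311 and 350 inside and 314 and 352 outside, and the 8 oligodendrocyte markers 62.5 and 62.5 inside and 70.6 and 92.6 outside. The 9 vascular markers summed higher inside the gate than outside, with 249 and 275 against 179 and 206. Not every gene did: Cldn5, Flt1, Tek and Dcn were lower inside in sham, and Flt1, Tek, Col1a2 and Dcn in stroke. The 8 OPC (oligodendrocyte precursor cell) markers gave 275 and 284 against 241 and 273, with overlapping intervals in stroke, and not every gene of the list was higher inside. No doublets were removed, and 104 gated sham nuclei (29.1%, 24.5 to 34.1) and 72 gated stroke nuclei (17.6%, 14.0 to 21.6) also passed the gate of another class. The part of these nuclei in the choice of bins was not tested as a cause, but results without them are given below. The libraries shared 34 barcodes among the nuclei kept.

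The sequences below are the 300 bases with the densest sham astrocyte coverage in 6 of the 12 lost bins with the most sham fragments. They are shown because they represent both kinds of lost bin described next. Over both libraries together, the first 3 bins were more open in astrocytes than in other nuclei, and the last 3 were not. In sham alone the Dnajb9 bin was also more open in gated nuclei, with 14.0 CPM against 12.1 outside. Capitals mark matches on either strand to the NFI half-site TTGGC, the E-boxes CAGATG and CATATG, the AP-1 site TGANTCA, the LHX-type homeodomain site TAATTA and the SOX site ACAATGG. The bases were read from the RefSeq copy of the mouse genome, build GRCm38.p6, which has the mm10 chromosomes. A match is a description of the letters, not evidence of binding. Each bin is named by the protein-coding gene with the nearest TSS, which need not be the gene it acts on.

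Adcy2, chr13:69037204-69037503, plus strand: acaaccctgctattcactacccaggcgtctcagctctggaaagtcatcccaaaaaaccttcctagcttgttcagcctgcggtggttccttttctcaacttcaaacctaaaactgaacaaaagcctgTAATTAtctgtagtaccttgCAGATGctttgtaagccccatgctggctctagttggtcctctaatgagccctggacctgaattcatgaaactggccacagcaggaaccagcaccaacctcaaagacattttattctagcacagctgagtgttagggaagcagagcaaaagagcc

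Slc9a9, chr9:94743311-94743610, plus strand: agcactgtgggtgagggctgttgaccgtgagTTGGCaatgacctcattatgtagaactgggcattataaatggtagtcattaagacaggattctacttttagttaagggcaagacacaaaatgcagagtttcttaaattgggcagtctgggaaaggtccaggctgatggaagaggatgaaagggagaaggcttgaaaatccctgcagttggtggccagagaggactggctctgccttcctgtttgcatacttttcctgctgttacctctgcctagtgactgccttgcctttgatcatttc

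Crocc2, chr1:93184288-93184587, plus strand: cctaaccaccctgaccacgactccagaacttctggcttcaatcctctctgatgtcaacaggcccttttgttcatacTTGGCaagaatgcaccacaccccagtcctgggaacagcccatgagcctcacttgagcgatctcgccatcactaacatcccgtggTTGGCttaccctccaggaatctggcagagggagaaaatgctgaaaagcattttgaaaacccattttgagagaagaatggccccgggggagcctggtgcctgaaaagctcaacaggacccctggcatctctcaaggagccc

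Prkcz, chr4:155305693-155305992, plus strand: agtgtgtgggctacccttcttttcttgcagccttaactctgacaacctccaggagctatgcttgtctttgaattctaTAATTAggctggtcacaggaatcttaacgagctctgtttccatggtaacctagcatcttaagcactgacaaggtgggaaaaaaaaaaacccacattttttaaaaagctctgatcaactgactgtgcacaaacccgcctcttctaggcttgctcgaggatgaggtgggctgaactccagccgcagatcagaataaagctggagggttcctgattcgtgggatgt

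Dnajb9, chr12:43827308-43827607, plus strand: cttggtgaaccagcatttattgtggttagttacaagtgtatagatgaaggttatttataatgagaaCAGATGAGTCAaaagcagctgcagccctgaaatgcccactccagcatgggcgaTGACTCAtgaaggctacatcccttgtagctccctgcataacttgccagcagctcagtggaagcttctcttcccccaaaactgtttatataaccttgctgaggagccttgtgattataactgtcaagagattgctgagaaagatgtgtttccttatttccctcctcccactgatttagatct

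Fcnb, chr2:28068587-28068886, plus strand: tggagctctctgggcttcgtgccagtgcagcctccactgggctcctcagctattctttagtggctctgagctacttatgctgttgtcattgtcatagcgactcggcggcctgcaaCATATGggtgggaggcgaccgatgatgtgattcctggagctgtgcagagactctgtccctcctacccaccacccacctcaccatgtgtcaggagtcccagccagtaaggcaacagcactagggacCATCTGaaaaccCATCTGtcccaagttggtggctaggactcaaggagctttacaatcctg

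In the Dnajb9 window CAGATG overlaps an AP-1 match, and a second AP-1 match follows. The Fcnb window holds CATATG once and the reverse complement of CAGATG in a pair. The Slc9a9 and Crocc2 windows hold NFI half-sites and none of the other marked letters. The Adcy2 window holds TAATTA and CAGATG.

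Most lost bins were shallow. Their median was 19 sham and 6 stroke astrocyte fragments, or 4.15 and 1.25 CPM, and the median ratio was 2.98. These values chose the bins and are given as a description. The highest ratio was 14.1, and 944 of the 1322 bins held under 30 fragments in all. The counting interval of the ratio lay wholly above 1 in each of the 1322 bins, and wholly above 2.5 in 29. The former follows from the rule: with 15 sham and 5 stroke fragments, as in a bin near Hes5, the interval already began at 1.08. It is therefore no support for single bins, which were picked by these counts from 33508. Fragments came from many nuclei, with a median of 17 sham and 5 stroke nuclei per bin. At the limit of the rule, the bins near Nuak1, Atxn1 and Trio each held 23 sham and 9 stroke fragments and a ratio of 2.51. Just outside it, bins near Cdk5r1 and Tmx1 each held 30 and 12 fragments, and a bin near Ubl4b held 61 and 25, all with a ratio of 2.49. At the lowest depth allowed, 184 lost bins held exactly 20 fragments, and 257 distal bins with 19 fragments would have met the ratio.

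**Figure D1:**
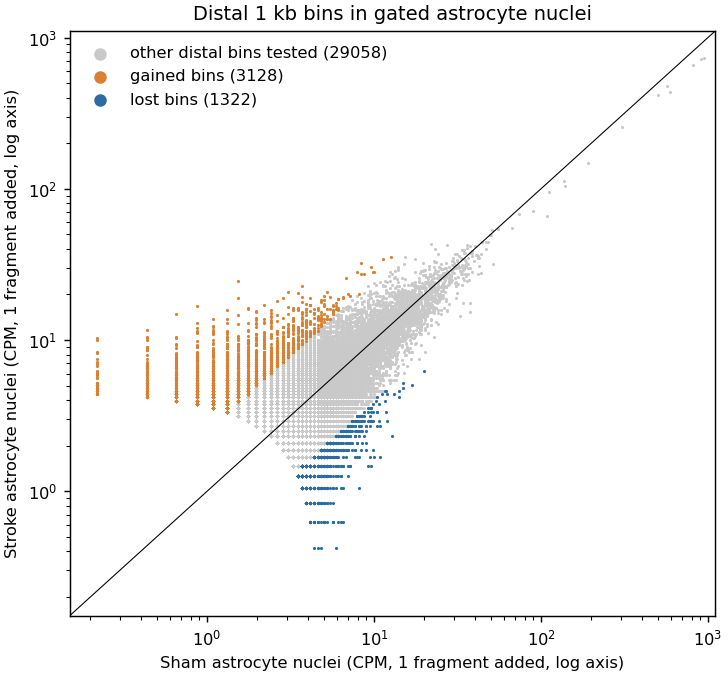
Sham (x axis) against stroke (y axis) level of each distal 1 kb bin tested, as CPM with 1 fragment added in gated astrocyte nuclei on log axes; the line marks equality and colours mark the 1322 lost and 3128 gained bins. The lost bins lie below the line at low levels, and the bins with the highest levels lie near the line.

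Most of the 1322 lost bins were less open in the gated nuclei than in other nuclei. The level of each bin in gated nuclei of both libraries together was divided by its level in the 5591 sham and 3969 stroke nuclei outside the gate. The median of this astrocyte over other ratio was 0.68 in the lost bins, 1.77 in all distal bins tested and 3.15 in the gained bins. In 978 of 1322 lost bins (74.0%) it was under 1, so that over both libraries together the bin was less open in astrocytes than elsewhere, against 24.2% of all bins tested. In 147 lost bins (11.1%) it was 2 or more, against 45.6% of all bins tested. The limits of 1 and 2 were set after the values had been seen. These shares depended on the gate and the depth: bins chosen with a gate score of 5 were under 1 in 40.2% and at 2 or more in 45.3%, those chosen with nuclei thinned to 5000 fragments in 36.4% and 46.4%, and those chosen in every other nucleus in 38.0% and 43.4%, so that the astrocyte-rich bins were then the larger group. Of all bins tested under these settings, 6.95%, 6.52% and 10.9% were under 1 and 70.8%, 71.0% and 62.3% at 2 or more, so that the lost bins still had the smaller share of astrocyte-rich bins. Of tested bins with a ratio under 0.5, 24.6% were lost and 0.217% gained. Of those with a ratio of 4 or more, 0.898% were lost and 14.8% gained. The ratio uses the counts that chose the bins, so this is a description. The low stroke counts of lost bins lower it, and the high stroke counts of gained bins raise it. In sham alone, the summed level of the lost bins was 6241 CPM in the gate and 6288 outside, and of the gained bins 4405 and 3619. The 978 bins had 4634 and 5700, and all bins tested 147660 and 94809.

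**Figure D2:**
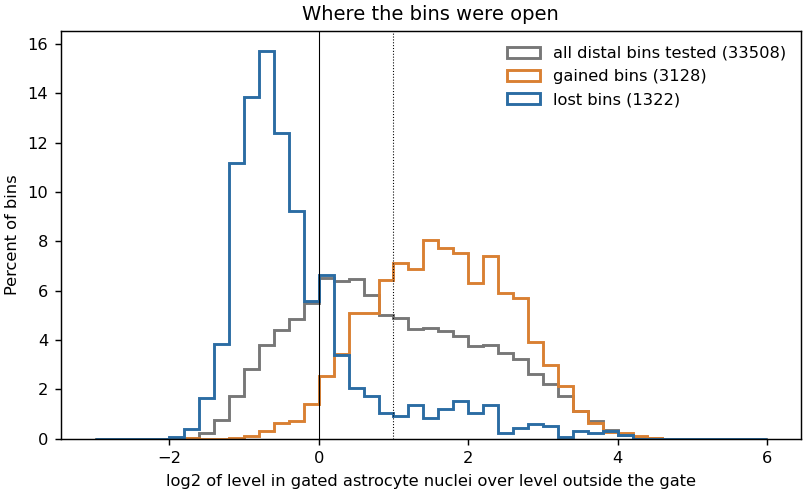
Distribution of the log2 ratio of the level in gated astrocyte nuclei over the level in nuclei outside the gate (x axis), as percent of bins (y axis), for all distal bins tested, gained bins and lost bins; the solid line marks equal levels and the dotted line a ratio of 2. The lost bins peak below 0 and the gained bins above it, with medians of 0.68 and 3.15 on the linear scale. The ratio includes the stroke counts that chose the bins, which lower it in lost and raise it in gained bins.

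The astrocyte-poor majority was defined by a higher level outside the gate, so its openness in other nuclei follows from that and is described. Over the 978 lost bins with a ratio under 1, the summed level outside the gate was 5700 CPM in sham and 3927 in stroke. That is 1.45 times as high in sham, against 1.22 times for all tested bins with a ratio under 1. In glutamatergic nuclei the summed level of the 978 bins was 7703 and 6164, the highest of the 6 classes gated by their own markers. In GABAergic nuclei it was 3262 and 2468. In sham, 894 of the 978 bins (91.4%) had a higher level in glutamatergic than in GABAergic nuclei, against 75.5% of all tested bins with a ratio under 1. The sham level was higher than the stroke level in each of the 6 classes: 1.25 times in glutamatergic, 1.32 in GABAergic, 1.77 in oligodendrocyte, 1.54 in OPC, 1.85 in microglia and macrophage and 1.52 in vascular nuclei. Bin by bin, 925 of the 978 were higher in sham outside the gate, with a median log2 ratio of 0.51. For all tested bins with a ratio under 1 these values were 81.5% and 0.26, so that bins of like openness also stood higher in sham. The share of fragments in the authors' peaks was 43.6% in gated sham and 41.7% in gated stroke nuclei, and 40.2% and 33.7% outside the gate. Its part in these differences was not tested.

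The 147 astrocyte-rich lost bins had closer sham and stroke levels outside the gate. They too stood higher in sham there than tested bins of their kind. Their summed level in gated nuclei was 778 CPM in sham and 235 in stroke, which is what chose them. Outside the gate it was 124 and 118, 1.05 times as high in sham, against 0.829 times for all tested bins with a ratio of 2 or more. In glutamatergic nuclei it was 95.02 and 93.05. Of the other 5 classes, it was 143 and 111 in vascular nuclei and 132 and 113 in GABAergic nuclei, and from 0.933 to 1.07 times as high in sham as in stroke in oligodendrocyte, OPC and microglia and macrophage nuclei. Outside the gate 76 of the 147 (51.7%) were higher in sham, with a median log2 ratio of 0.02. Over all tested bins with a ratio of 2 or more these values were 25.4% and -0.30. In 271 sham and 248 stroke nuclei just outside the gate, with a score of 1.5 to 3, the summed levels were 199 and 189 CPM. The median log2 ratio of the 147 bins there was -0.17, against -0.43 over all tested bins with a ratio of 2 or more. The summed level of the 147 bins there was 1.05 times as high in sham as in stroke, against 0.729 times for all tested bins with a ratio of 2 or more, and 3.31 times in the gate, where the bins were chosen.

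**Figure D3:**
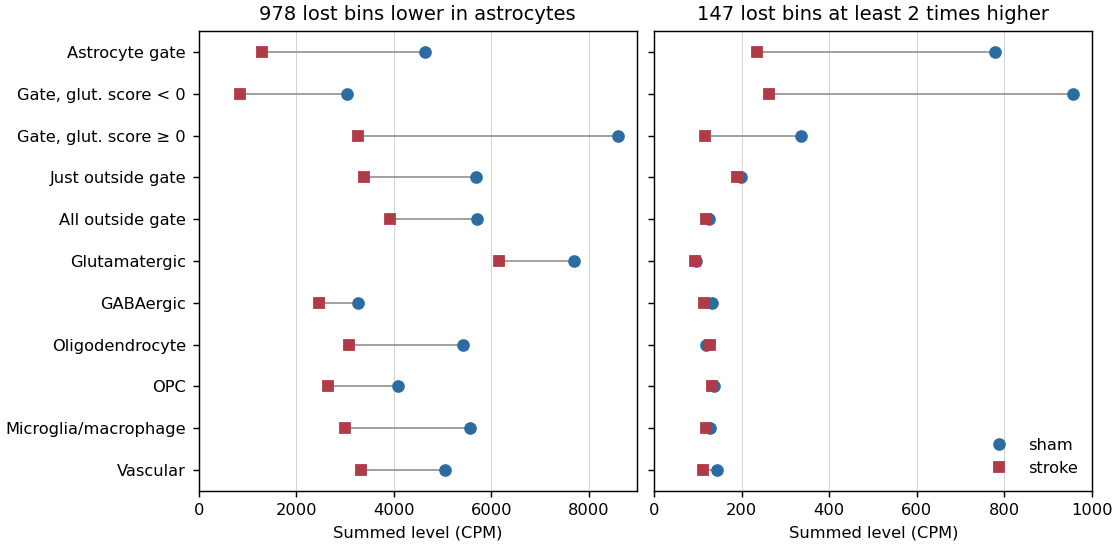
Summed level (x axis, CPM) of the 978 lost bins lower in astrocytes (left) and the 147 at least 2 times higher (right) in each set of nuclei, sham as circles and stroke as squares; glut. score is the glutamatergic marker score and just outside gate means a score of 1.5 to 3. In the 3 gated sets the sham excess follows from the choice of bins. On the left sham also exceeds stroke in every set outside the gate, where glutamatergic nuclei have the highest level, and on the right the largest differences are within the gate, with levels of 95.02 to 199 in sham outside it, where vascular nuclei have 143 in sham and 111 in stroke.

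Within the gate, the astrocyte-poor lost bins were carried unevenly by nuclei. These nuclei chose the bins, so that higher levels in sham follow from the rule and only the spread among nuclei of 1 library is described. Across 357 sham nuclei their level ran from a lower quartile of 794 through a median of 2226 to an upper quartile of 7548 CPM. Across 410 stroke nuclei these values were 285, 470 and 1096. Nuclei of the gate were then divided by their glutamatergic marker score at 0, a division added after the data had been seen. The 108 sham nuclei at 0 or above had a median of 8324 CPM and the 249 below had 1129. The 69 stroke nuclei at 0 or above had a median of 3132 and the 341 below had 419. Nuclei with a score of 0 or more, which is at or above the number of glutamatergic marker fragments expected from depth, were 30.3% of gated sham nuclei (25.5 to 35.3) and 16.8% of gated stroke nuclei (13.3 to 20.8). The astrocyte-rich lost bins went the other way, with medians of 232 and 1020 in sham nuclei at or above 0 and below 0, and 81.7 and 212 in stroke nuclei. All tested bins of the same kinds had the same directions. With a ratio under 1, their median sham level per bin was 5.31 CPM at or above 0 and 2.45 below, against 8.34 and 2.76 in lost bins. With a ratio of 2 or more it was 1.52 and 3.99, against 1.52 and 5.83 in lost bins.

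**Figure D4:**
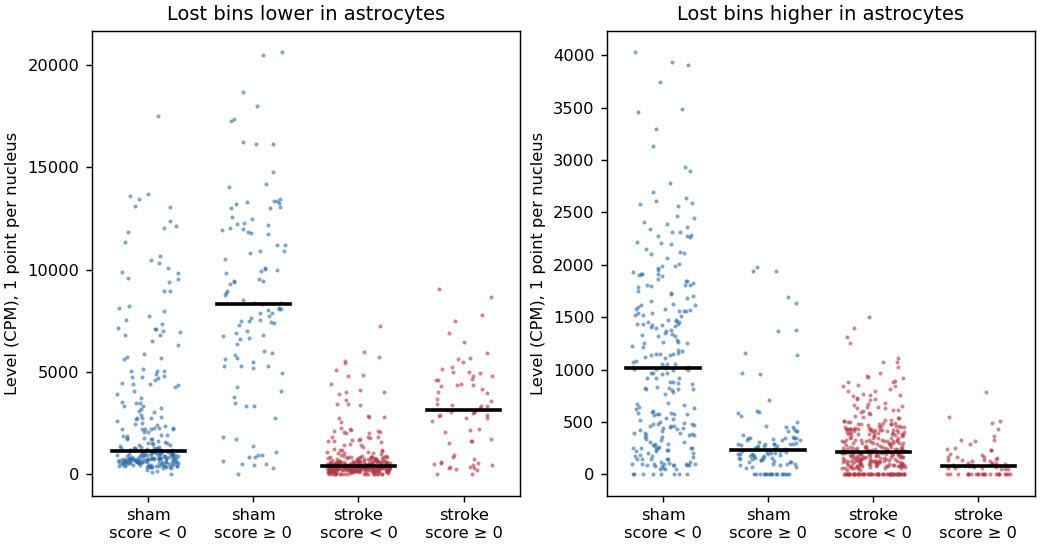
Level per nucleus (y axis, CPM) summed over the lost bins lower in astrocytes (left) and higher in astrocytes (right), for gated sham and stroke nuclei with a glutamatergic marker score below 0 or at 0 and above; each point is a nucleus and the bar is the median. Higher levels in sham follow from the choice of bins; within each library the nuclei with a score of 0 or more are higher on the left (sham medians 8324 and 1129) and lower on the right (232 and 1020).

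When nuclei with a glutamatergic score of 0 or more were left out and the bins chosen anew, 486 of 23230 bins (2.09%) met the rule, of which 253 were among the 1322. Their makeup differed: 35.2% had an astrocyte over other ratio under 1 and 48.4% a ratio of 2 or more, against 11.3% and 62.7% of the bins tested in the same nuclei. The 1322 bins themselves were still 3.56 times higher in sham in these nuclei when summed, but these are nuclei whose counts had chosen the bins. The part of glutamatergic marker fragments in the remaining nuclei was not tested.

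The bins were also chosen in every other nucleus and measured in the nuclei left aside. Both sets of nuclei come from the same 2 libraries and share every difference between them. They are not replicates of the conditions, and only counting error and the choice of bins differ. With 20 fragments required in the choosing nuclei, 279 of 11498 bins met the rule, and their median log2 ratio was 1.56 there and 0.45 in the other nuclei, where all bins tested had -0.19. A ratio of at least 2.5 was reached again by 54 of the 279 (19.4%), against 2.54% of all bins tested. Among bins chosen with an astrocyte over other ratio under 1, the median in the other nuclei was 0.95 for 106 bins, against 0.35 over all such bins. Among those at 2 or more it was 0.29 for 121 bins, against -0.35 over all such bins. With 10 fragments required, a minimum added after the data had been seen, the medians in the other nuclei were 0.81 for 991 astrocyte-poor bins, against 0.39 over all such bins, and 0.07 for 588 astrocyte-rich bins, against -0.39, and sham was the higher in 84.5% and 55.3% of them, against 69.7% and 33.8% of all bins tested of the same kinds. In both kinds the ratio was smaller in the nuclei that had not chosen the bins. With 20 fragments required, sham was the higher in 89.6% and 62.0% of these bins, against 67.8% and 31.4% of all bins tested of the same kinds.

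**Figure D5:**
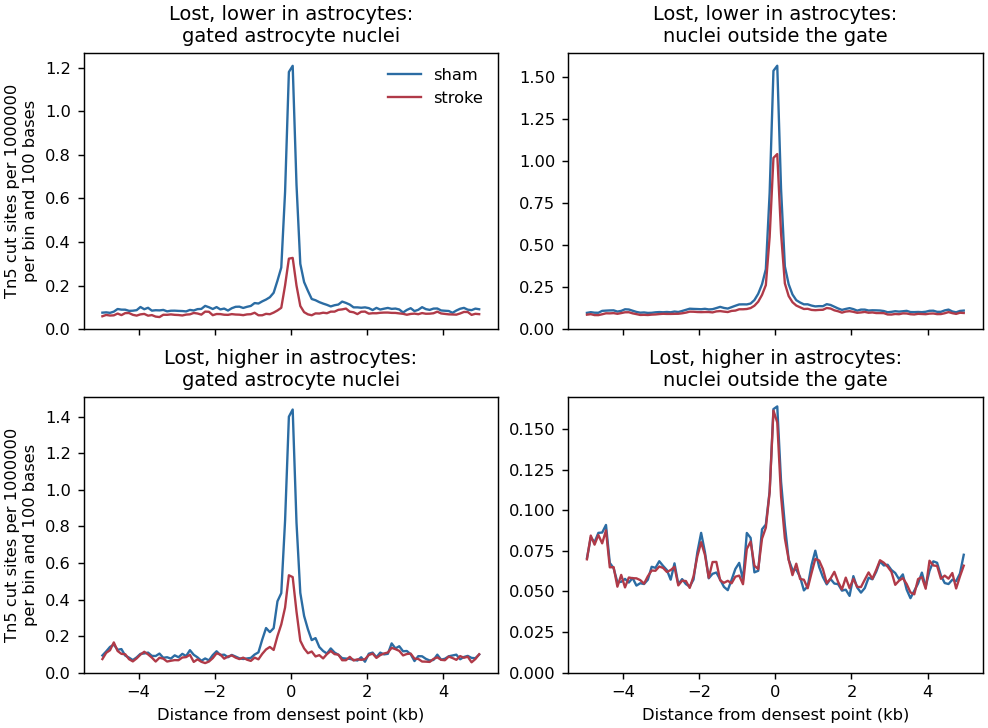
Mean number of Tn5 cut sites per 1000000 cut sites in 100-base steps (y axis) by distance from the densest point of each bin (x axis, kb), for the 978 lost bins lower in astrocytes (top) and the 147 higher in astrocytes (bottom), in gated nuclei (left) and nuclei outside the gate (right). The central peak follows from the alignment, and its greater height in gated sham nuclei from the choice of bins; outside the gate the peak of the bottom panels is 0.164 high in sham and 0.161 in stroke.

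The plot of cut sites is aligned on the densest point of each bin, the centre of the 300 bases with the most cut sites in all kept nuclei of both libraries. A peak there follows from the alignment, and the taller sham peak in gated nuclei from the choice of bins, so the heights are a description. In gated sham nuclei the 978 astrocyte-poor bins reached 1.21 cut sites per 1000000 in the highest 100-base step, and 0.0858 on average over the outermost 1 kb of each side. In gated stroke nuclei these values were 0.327 and 0.0684. Outside the gate the highest step was 1.56 in sham and 1.04 in stroke. For the 147 astrocyte-rich bins it was 1.44 and 0.533 in gated sham and stroke nuclei.

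The 12 lost bins with the most sham fragments show both kinds. The first lay at chr13:69037001-69038000, outside a gene body and 37460 bases from the TSS of Adcy2, an adenylyl cyclase that makes cyclic AMP. It held 90 fragments in 61 sham nuclei and 29 in 25 stroke nuclei, or 19.7 CPM (15.8 to 24.2) and 6.07 (4.06 to 8.71). Outside the gate it had 1.35 and 0.769 CPM, and in glutamatergic nuclei 0.15 and 0.287, so it was 11.4 times higher in astrocytes. Just outside the gate it had 4.68 in sham and 2.21 in stroke.

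The second lay at chr9:94743001-94744000 within Slc9a9, which encodes a sodium and proton exchanger of endosomes. It held 76 sham and 23 stroke fragments, or 16.6 CPM (13.1 to 20.8) and 4.81 (3.05 to 7.22). Its level was 14.9 times higher in astrocytes than in other nuclei, where it had 0.843 and 0.492 CPM. The bin in Crocc2 at chr1:93184001-93185000, which overlaps an exon, held 67 and 24 fragments, or 14.6 CPM (11.3 to 18.6) and 5.02 (3.22 to 7.47). Outside the gate its levels were 1.23 in sham and 1.28 in stroke. These 3 bins were higher in sham in gated nuclei and in nuclei just outside the gate.

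The other 9 of the 12 bins were less open in astrocytes than elsewhere over both libraries together, with ratios from 0.477 to 0.713. The bin in Prkcz, which encodes an atypical protein kinase C, lay at chr4:155305001-155306000 and held 67 sham and 22 stroke fragments. Outside the gate it had 17.6 CPM in sham and 11 in stroke, and in glutamatergic nuclei 21 and 14.9. The bin at chr12:43827001-43828000, 382068 bases from the TSS of Dnajb9, held 64 and 19 fragments. It had 12.1 and 12.9 CPM outside the gate, so that its sham excess was not seen there. In gated sham nuclei it had 14.0 CPM, so that in sham alone it was more open in the gate than outside. The bin near Fcnb at chr2:28068001-28069000 held 58 and 10 fragments, or 12.7 CPM (9.62 to 16.4) and 2.09 (1.003 to 3.85). In glutamatergic nuclei it had 22.5 and 20.4, and in GABAergic nuclei 4.63 and 2.46. One bin, at chr2:180893001-180894000, lay 40 bases from the annotated start of Mir124a-3, a gene for a microRNA abundant in neurons, although its nearest protein-coding TSS was that of Ythdf1, 26387 bases away. It held 64 and 21 fragments in the gate and had 19.7 and 13.6 CPM outside it. The bin 36890 bases from the TSS of Fos, the immediate-early AP-1 gene, held 53 and 21 fragments and had 19.3 and 11.2 CPM outside the gate. It contains the annotated start of a noncoding gene, Gm40477. The remaining 4 lay nearest to Cd6, Ttc7, Prdm11 and Cd74, with 53 to 59 sham and 13 to 20 stroke fragments, and were higher in sham outside the gate as well.

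The lost bins were spread over many genes. The 1322 bins had 1073 nearest genes, of which 879 had 1 lost bin. Kalrn, which encodes the kalirin exchange factor of dendritic spines, had 8 lost of 35 tested bins, all within the gene. Their sham levels ran from 3.49 to 7.86 CPM and their stroke levels from 0.627 to 1.67, and outside the gate all 8 were higher in sham. Glutamatergic nuclei had a median of 7.12 CPM in these bins in sham and GABAergic nuclei 1.80. Pdcd6ip, which encodes the ESCRT adaptor ALIX, had 6 lost of 15 tested bins, all of them 198244 bases or more from its TSS. Over both libraries together, each of the 6 was less open in astrocytes than elsewhere. Gatb had 5 of 15 tested bins, Gse1 5 of 68 and Khdrbs3 5 of 10. None of these 5 genes had more than 1 gained bin.

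Few lost bins lay near genes that define astrocytes. Bins were assigned to a gene list where the nearest or the host gene belonged to it. The list of homeostatic astrocyte genes had 550 tested bins, of which 4 were lost (0.727%) and 52 gained (9.45%), against 3.95% and 9.34% of all bins. The share lost was near that of all tested bins that were more open in astrocytes, of which 1.03% were lost at a ratio of 2 to 4 and 0.898% at 4 or more. The lost bin in Slc1a2, the main astrocyte glutamate transporter gene, lay at chr2:102742001-102743000 and held 26 sham and 9 stroke fragments, or 5.68 CPM (3.71 to 8.32) and 1.88 (0.861 to 3.57). The bin in Acsbg1, an acyl-CoA synthetase gene, held 17 and 3 fragments. Both lie in bodies of genes used for the gate, whose fragments helped to choose the nuclei. A bin near Hes5, a Notch effector gene, held 15 and 5 fragments. A bin 139046 bases from the TSS of Trpm3, a cation channel gene, held 17 and 3. The Slc1a2, Acsbg1 and Hes5 bins were 2.71, 11.6 and 2.24 times higher in astrocytes, and the Trpm3 bin had a ratio of 0.84. In sham alone the Trpm3 bin had 3.71 CPM in gated nuclei and 2.59 outside.

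Genes of astrocyte transcription factors had 10 lost bins of 538 tested (1.86%), 5 of them at least 2 times higher in astrocytes. A bin in Rora, a nuclear receptor gene, held 25 and 9 fragments and was 6.11 times higher in astrocytes. Bins near Tcf7l2, an effector of Wnt signalling, Etv5 and Nr1d1 held 43 and 16, 32 and 9, and 31 and 12 fragments, with ratios of 1.14, 0.656 and 0.794. Morphogens and their receptors had 7 lost bins of 402 (1.74%). A bin near Wnt7b, a Wnt ligand gene, held 19 and 3 fragments and was 2.56 times higher in astrocytes, and one near Wnt7a held 22 and 7 with a ratio of 0.683. The Wnt7a bin lay 14 bases from the annotated start of a noncoding gene, 1810044D09Rik. Bins near Axin2, a target of Wnt signalling, and in Ntrk2, the gene of the BDNF receptor, had ratios of 0.537 and 0.855.

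Genes of glutamate and GABA handling had 7 lost bins of 309 (2.27%). Besides the Slc1a2 bin they included one in Gabbr2, a subunit of the GABA-B receptor, with 44 and 17 fragments. A bin 267835 bases from the TSS of Gria2 held 24 and 8 fragments, and one in Gria1 held 20 and 4. Both genes encode AMPA receptor subunits. Genes of synapse organization and adhesion had 8 lost bins of 347 (2.31%). The Lsamp bin was 4.13 times higher in astrocytes, whereas those in Nrxn3, Ctnnd2 and Ntm had ratios of 0.481, 0.582 and 1.04. Genes of water, potassium and gap junctions had 1 lost bin of 110, near Kcnk1. Reactive astrocyte genes had 1 lost bin of 116 and 41 gained (35.3%). The lost bin lay 268508 bases from the TSS of Emp1, its nearest gene, and had a ratio of 0.437. In each of these lists the share of tested bins lost was below the 3.95% of all bins, but so was that of all tested bins with an astrocyte over other ratio of 1 or more, which was 1.94% at 1 to 2 and lower above.

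Motif letters in the 300 bases round this densest point, which need not be the window printed above, also set the lost bins beside the others. The E-box CAGATG occurred in 40.8% of lost bins, 27.0% of all tested bins and 23.5% of gained bins. It occurred in 43.0% of the astrocyte-poor and 27.9% of the astrocyte-rich lost bins. In all tested bins of the same kinds, with a ratio under 1 and of 2 or more, the shares were 36.9% and 22.2%. CATATG followed the same order, with 10.3%, 4.51% and 3.29% in lost, tested and gained bins. The MEF2-type match, CTA and TAG 4 bases apart, occurred in 7.11%, 4.40% and 3.45%. Beside tested bins of the same kinds the gaps were smaller. With a ratio under 1, CATATG occurred in 12.1% of lost and 8.07% of tested bins, and the MEF2-type match in 7.67% and 5.78%. With a ratio of 2 or more these shares were 4.08% (6 bins) and 2.66%, and 3.40% (5 bins) and 3.33%. Not every E-box was more frequent in lost bins. CACGTG occurred in 6.66% of lost, 5.34% of tested and 3.20% of gained bins, but CAGCTG in 26.2%, 26.5% and 25.5%. With a ratio under 1, CAGCTG occurred in 25.6% of lost and 26.9% of tested bins, and with a ratio of 2 or more in 23.1% and 26.8%.

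NFI, SOX and AP-1 letters were less frequent in lost bins than in all tested bins, whereas homeodomain letters were not. The NFI half-site TTGGC occurred in 49.8% of lost, 59.3% of tested and 64.7% of gained bins. Among bins of the same kind the shares lay closer, with 48.7% of the astrocyte-poor lost bins against 49.6% of all tested bins with a ratio under 1, and 59.9% of the astrocyte-rich lost bins against 68.2% of all tested bins with a ratio of 2 or more. A full palindromic NFI site, TTGGC and GCCAA 5 bases apart, occurred in the 1 kb of 1 lost bin (0.0756%) and 58 tested bins (0.173%), too few to compare. The SOX letters ACAATGG occurred in 1.89% of lost and 3.98% of tested bins. With a ratio under 1 these shares were 1.43% and 2.57%, and with a ratio of 2 or more 3.40% (5 bins) and 5.30%. The homeodomain letters TAATTA occurred in 6.43% of lost and 6.27% of tested bins. Their share was 12.9% (19 bins) in the astrocyte-rich lost bins and 8.55% in all tested bins with a ratio of 2 or more, and 5.73% in the astrocyte-poor lost bins and 4.59% in all tested bins with a ratio under 1. The AP-1 site TGANTCA occurred in 13.4% of lost bins, 16.8% of tested and 43.4% of gained bins. The tested bins include the 3128 gained bins, which raise their AP-1 share. Of tested bins with a ratio of 2 to 4 and of 4 or more, 15.6% and 14.8% were gained. In the astrocyte-poor lost bins the AP-1 site occurred in 15.7%, against 20.8% of all tested bins with a ratio under 1. In the astrocyte-rich lost bins it occurred in 5 of 147 (3.40%), against 15.9% with a ratio of 2 or more. The CTCF-type match, CCAC, AGG and GGC each separated by 1 base, occurred in 0.908% of lost and 2.99% of tested bins. With a ratio under 1 it occurred in 4 lost bins (0.409%), against 3.15% of tested bins. With a ratio of 1 to 2 it occurred in 7 (3.55%) against 6.14%, and with a ratio of 2 or more in 1 (0.680%) against 0.825%.

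In base composition the lost bins lay close to the tested bins, whereas they lay farther from start sites. The median GC content was 48.4%, against 48.6% of tested bins, and the median repeat-masked share 12.1% against 12.6%. Gene bodies held 747 of the 1322 (56.5%), against 55.0% of tested bins, and 14.7% overlapped an exon of a protein-coding gene, against 13.4%. The median distance to the nearest protein-coding TSS was 36279 bases for lost and 30510 for tested bins. It was 54081 for the astrocyte-rich lost bins, against 35254 for all tested bins with a ratio of 2 or more. The TSS of a noncoding gene lay within 1 kb of 66 lost bins (4.99%), against 6.47% of tested bins.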

How the data were processed

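Open chromatin of single nuclei was profiled with the 10x Genomics Next GEM Single Cell ATAC kit v2 in 1 sham and 1 stroke library. Per the labels, Cell Ranger ATAC 2.1.0 and the mm10 build were used. The authors deposited a list of fragments and the counts of fragments per barcode, neither of them normalized. The sequencing gave 101754805 sham and 125728706 stroke read pairs with a barcode, and 76959104 and 96465679 fragments. Barcodes called as cells were kept with over 1000 fragments in peaks and over 20% of fragments in peaks, a part of the filter of the study, which left 5948 of 6979 sham and 4379 of 8740 stroke barcodes. The paper reports more cells for each library than were kept here, and for stroke more than the barcodes called, for which the reason was not tested. Blacklist, nucleosome and TSS filters, clustering and cell labels of the study were not used here.

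Marker fragments were counted over gene bodies and 2 kb upstream of GENCODE M21 genes. The number expected was depth times the rate over all kept nuclei of both libraries, and the gate required a score of 3 and at least 5 marker fragments. Fragments were counted in the 1 kb bin of their midpoint and divided by all fragments of the gated nuclei to give CPM. Scripts used Python 3.11.15, numpy 2.4.6, pandas 2.3.3, scipy 1.17.1, pysam 0.24.0 and samtools 1.23.1. With 1 library per condition no test was made. The members, gene lists and motifs were chosen with earlier results of these data known. Named bins were the 12 with the most sham fragments, the highest bin of up to 4 genes per list, the 5 genes with the most lost bins, and 3 bins on each side of the ratio limit. Alternatives changed the counting, scaling, added fragments, minimum, distance, gate, nuclei and depth. The result of another gene list is not reported here.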

Additional observations from a re-analysis of the deposited data

How the results depend on the processing

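The number of lost bins was 892 to 1756, within 1.5 times the 1322 reported, under 8 of 16 alternatives. Requiring the counting interval of the ratio above 1 left all 1322, since every interval already was. It was 441 with 5 fragments added, 148 with a minimum of 40 fragments, 254 with a gate score of 5, 617 without nuclei passing another gate, 151 with nuclei thinned to 5000 fragments (332 sham and 384 stroke nuclei left) and 279 when chosen in every other nucleus. Of alternatives chosen after seeing the data, it was 2179 in every other nucleus with a minimum of 10, and 486 without nuclei with a glutamatergic score of 0 or more. Fewer fragments or nuclei leave fewer bins above the minimum, so these counts are not on equal terms. The share of the lost bins less open in astrocytes, 74.0%, was 35.2% without nuclei with a glutamatergic score of 0 or more to 80.1% with expectation within each library.

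The median log2 sham over stroke outside the gate, 0.45, was 0.34 when scaled by distal fragments, 0.31 when scaled by promoter fragments, 0.50 with 5 fragments added, 0.58 with a minimum of 40, 0.26 with a gate score of 5, 0.40 with expectation from peak fragments, 0.29 when thinned and 0.26 in every other nucleus. It stayed above 0 in all 13 alternatives run for it. The percent near a homeostatic gene, 0.303%, was 0% with a minimum of 40, 1.18% with a gate score of 5, 1.32% when thinned and 1.79% in every other nucleus, and 0.224% to 0.701% in the rest. The percent with a full NFI site, 0.0756%, was 0% with 5 fragments added, with a minimum of 40, over 20 kb from a TSS and with a gate score of 5, 0.662% when thinned, and 0.0569% to 0.358% in the rest. Both percents rest on few bins, 4 and 1 as reported. For these shifts the cause was not tested. No paired analysis was possible because there was only 1 library of each kind.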

Other observations

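The lost bins were found on all 19 autosomes tested, and made up from 2.82% of the tested bins on chromosome 14 to 5.33% on chromosome 15. Another lost bin lay within 10 kb of 128 lost bins (9.68%), whereas 4.69% of all tested bins had a lost bin other than themselves at that distance. A gained bin lay within 10 kb of 54 lost bins (4.08%), against 9.76% of all tested bins with another gained bin at that distance.

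Fragments in lost bins were slightly longer than in all tested bins, with a median of 83 against 76 bases in both libraries. The median was 84 bases in the astrocyte-poor bins of both libraries, but 75 in sham and 73 in stroke in the astrocyte-rich ones. Of the 28581 sham fragments in gated nuclei, 75.9% were under 150 bases, against 77.8% of those in all tested bins. For the 8488 stroke fragments these shares were 74.8% and 78.7%.

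In the lost bins of intermediate astrocyte over other ratio, from 1 to 2, 132 of 197 (67.0%) lay in gene bodies and 22.8% overlapped an exon, against 54.3% and 16.4% of all tested bins of that kind. Outside the gate, 164 of these 197 were higher in sham, with a median log2 ratio of 0.26, against 59.5% and 0.07 of all tested bins of that kind.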
